A study of Mus musculus with 6 samples.

Results

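The genes described here encode 9 subunits and enzymes of the tricarboxylic acid (TCA) cycle, *Cs*, *Idh3a*, *Idh3b*, *Idh3g*, *Ogdh*, *Suclg1*, *Suclg2*, *Mdh2* and *Fh1*. They were picked by name as rows of a read-count table of 19790 genes, through their NCBI gene identifiers. No measured value enters this step, but the genes were chosen with earlier results of these data known. Leaving out 1 library, as done below, does rest on a measured property, its seminal vesicle RNA. The counts come from gWAT, the gonadal white adipose tissue that lies next to the testis, of 6 wild-type C57BL/6 male mice. Of these, 3 ate a normal chow diet (NCD) and 3 ate a high-fat diet (HFD) for 8 weeks, starting at 6 weeks of age by the sample labels and at 8 weeks by the study's methods. Each library is taken here as 1 mouse and comes from unsorted tissue, so that adipocytes, immune cells, vessels and stroma contribute to every value. Fewer cells of a type and less RNA per cell cannot be told apart in such libraries.

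The TCA cycle runs in the mitochondrial matrix, where it oxidises the acetyl group of acetyl-CoA to carbon dioxide and hands the electrons to the respiratory chain as NADH and reduced flavin. Citrate synthase opens the cycle, isocitrate dehydrogenase forms 2-oxoglutarate, the 2-oxoglutarate dehydrogenase complex forms succinyl-CoA, and succinyl-CoA synthetase, succinate dehydrogenase, fumarase and malate dehydrogenase return it to oxaloacetate. In white adipocytes the cycle also gives up citrate, which is exported to the cytosol and cleaved there to acetyl-CoA for fatty acid synthesis.

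All 9 genes had lower fitted levels in HFD-fed than in NCD-fed mice, but how many passed a test depended on a single NCD library. With all 6 mice, *Idh3g* alone passed. Without NCD replicate 1, 8 of the 9 genes passed, *Suclg2* being the exception, and their levels on HFD were between 38.6% (*Ogdh*) and 64.7% (*Cs*) below those on NCD. That library carried 58.6% of its counts on 11 secretory genes of the seminal vesicle, a male accessory gland near this fat pad, against 11.2% and 2.30% in NCD replicates 2 and 3 and 2 to 8 counts in all in each HFD library. Its smooth muscle markers summed to 7347 CPM (read counts relative to the size of the library) after scaling and those of the other 5 libraries to between 376 and 996. Its 10 adipocyte markers summed to 5669 CPM, against 20985 and 28946 in NCD replicates 2 and 3. For this reason the diet comparisons of genes, lists and ratios are given with all mice and without NCD replicate 1, where 2 NCD mice remain and the first of these still holds the 11.2%.

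Library totals ranged from 49575113 to 66360046 counts, and a TCA cycle gene had between 1180 and 40553 counts in a library. The counting error of the lowest count of each gene was between 1.02% and 2.91%, so that the spread between mice, and not depth, set the precision. Values are CPM scaled by edgeR's TMM factors (0.496 for NCD replicate 1 and 1.02 to 1.27 for the other libraries). Diets were compared with edgeR's quasi-likelihood test, adjusted by Benjamini-Hochberg over all genes kept (15241, or 15510 without NCD replicate 1), and genes with an adjusted p under 0.05 are said to pass. Such p-values measure the spread between these mice.

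The stretches of DNA in front of 3 of the genes are shown because these genes mark the ends of the result. *Cs* had the lowest log2 fold change, *Idh3g* was the gene that passed with all mice, and *Suclg2* was the gene that passed in neither fit. Each line gives the 250 bases before the transcript start in RefSeq's annotation of GRCm38.p6, 5′ to 3′ on the strand of the gene. They lie at chr10:128337477-128337726 (plus strand), chrX:73786898-73787147 (minus strand) and chr6:95718847-95719096 (minus strand). Capitals mark matches to the letters of motifs for regulators of mitochondrial genes.
Cs: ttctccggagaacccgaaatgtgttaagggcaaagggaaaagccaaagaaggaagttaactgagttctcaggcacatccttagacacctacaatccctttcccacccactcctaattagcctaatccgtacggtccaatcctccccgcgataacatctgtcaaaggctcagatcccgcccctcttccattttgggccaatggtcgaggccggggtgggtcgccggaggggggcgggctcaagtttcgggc
Idh3g: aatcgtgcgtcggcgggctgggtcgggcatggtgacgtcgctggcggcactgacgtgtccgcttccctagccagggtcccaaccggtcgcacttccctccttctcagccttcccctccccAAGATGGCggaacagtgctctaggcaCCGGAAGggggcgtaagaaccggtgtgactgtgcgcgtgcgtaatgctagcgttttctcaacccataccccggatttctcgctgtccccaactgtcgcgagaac
Suclg2: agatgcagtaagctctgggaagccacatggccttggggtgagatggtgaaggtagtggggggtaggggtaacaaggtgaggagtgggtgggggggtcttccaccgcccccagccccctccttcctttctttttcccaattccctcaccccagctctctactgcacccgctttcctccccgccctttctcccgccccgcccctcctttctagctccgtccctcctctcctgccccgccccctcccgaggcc

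Searched on both strands were GCGCATGCG for NRF1, AAGGTCA for the oestrogen-related receptors, CCGGAAG for GABP and AAGATGGC for YY1, and no motif overlapped another in these windows. The *Idh3g* window held the GABP letters starting 104 bases and the YY1 letters starting 130 bases before the start. Of all 32851 windows of the same length, 6.91% held the GABP letters, 1.56% the YY1 letters, 1.45% the NRF1 letters and 4.08% the letters of the oestrogen-related receptors. None of the 4 motifs was found in the *Cs* and *Suclg2* windows. Among the 8 genes with a window, only *Ogdh* (NRF1) and *Idh3g* held any match. These 8 genes had 13 windows, because *Ogdh* has several transcript starts. Its NRF1 letters began 15 and 36 bases before neighbouring starts whose windows overlap, and are the same site. The windows of its other starts, among them the one at the start of the gene, held no match. *Idh3a* had no entry. The *Idh3g* window also contains 120 exon bases of *Ssr4*, which is transcribed in the opposite direction. *Ssr4*, looked up after these windows had been read, had a log2 fold change of -1.16 with all mice (adjusted p = 0.253 from edgeR) and -0.11 without NCD replicate 1 (adjusted p = 0.658 from edgeR).

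The entry step is catalysed by citrate synthase, which joins acetyl-CoA to oxaloacetate. Its gene *Cs* (NCBI gene 12974, chr10:128337727-128362482) was measured at 293, 678 and 707 CPM in the NCD-fed mice (replicates 1, 2 and 3) and at 275, 239 and 213 CPM in the HFD-fed mice, in the same order. The diets did not overlap, and NCD replicate 1 lay much nearer to the HFD-fed mice than to the other NCD-fed mice. The log2 fold change of HFD against NCD was -1.21 (standard error, SE, 0.374, edgeR adjusted p = 0.0974), short of the threshold. Leaving out NCD replicate 1 gave -1.50 (SE 0.165, edgeR adjusted p = 0.00686), and *Cs* fell 2.83-fold. The near copy *Csl* had 0 to 6 counts in a library.

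Isocitrate dehydrogenase of the cycle uses NAD and is built from the catalytic subunit IDH3A and the subunits IDH3B and IDH3G, through which its activity is regulated. *Idh3g* (NCBI gene 15929, chrX:73778963-73786897) was measured at 97.8, 130 and 144 CPM on NCD and at 71.9, 69.4 and 66.8 CPM on HFD, in replicates 1, 2 and 3. Every HFD-fed mouse lay below every NCD-fed mouse, and the HFD-fed mice lay close together. Mean levels were 124 ± 23.6 CPM on NCD and 69.4 ± 2.56 CPM on HFD (SD, n = 3 mice each). *Idh3g* fell by 0.83 on the log2 scale (SE 0.182, edgeR adjusted p = 0.0494) with all mice, just inside the threshold, and by 0.96 (SE 0.111, edgeR adjusted p = 0.00754) without NCD replicate 1.

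*Idh3b* (NCBI gene 170718, chr2:130279309-130284451) was at 97.0, 176 and 199 CPM on NCD and at 96.6, 83.4 and 73.8 CPM on HFD. The diets did not overlap, but NCD replicate 1 and HFD replicate 1 were almost equal. Its log2 fold change was -0.90 (SE 0.295, edgeR adjusted p = 0.110) with all mice and -1.14 (SE 0.150, edgeR adjusted p = 0.00942) without NCD replicate 1, where it fell. Only 5 exon bases are shared with the neighbouring gene *Nop56*.

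*Idh3a* (NCBI gene 67834, chr9:54586511-54604662) was at 73.9, 326 and 324 CPM on NCD and at 190, 122 and 89.3 CPM on HFD. Here NCD replicate 1 was the lowest of all 6 mice, while NCD replicates 2 and 3 were the highest. On NCD the mean was 241 ± 145 CPM (SD, n = 3 mice), and the log2 fold change of -0.85 had an SE of 0.595 (edgeR adjusted p = 0.375). *Idh3a* fell by 1.27 on the log2 scale (SE 0.309, edgeR adjusted p = 0.0395) once NCD replicate 1 was left out. That library held 22.8% of the mean of NCD replicates 2 and 3 for *Idh3a*, and between 19.5% and 28.9% of it for the 10 adipocyte markers. For the other TCA cycle genes the share was between 41.4% (*Mdh2*) and 84.9% (*Suclg2*).

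The 2-oxoglutarate dehydrogenase complex releases carbon dioxide and forms succinyl-CoA, and OGDH is its first component. *Ogdh* (NCBI gene 18293, chr11:6291597-6359094) was at 235, 346 and 374 CPM on NCD and at 247, 217 and 193 CPM on HFD. NCD replicate 1 fell inside the HFD range, and the other NCD-fed mice lay above it. The log2 fold change was -0.54 (SE 0.239, edgeR adjusted p = 0.193) with all mice. *Ogdh* fell by 0.70 (SE 0.153, edgeR adjusted p = 0.0297) without NCD replicate 1, the smallest change among the 8 genes that passed there.

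Succinyl-CoA synthetase makes a nucleoside triphosphate from the energy of the thioester bond, and pairs the common alpha subunit SUCLG1 with the GTP-forming beta subunit SUCLG2 or the ATP-forming beta subunit SUCLA2. *Suclg1* (NCBI gene 56451, chr6:73248505-73276907) was at 78.7, 101 and 106 CPM on NCD and at 64.3, 55.2 and 43.9 CPM on HFD, without overlap. Its log2 fold change was -0.80 (SE 0.204, edgeR adjusted p = 0.0654) with all mice and -0.91 (SE 0.172, edgeR adjusted p = 0.0208) without NCD replicate 1. *Suclg2* (NCBI gene 20917, chr6:95473009-95718858) was at 35.9, 39.7 and 44.9 CPM on NCD and at 39.0, 24.0 and 19.6 CPM on HFD. HFD replicate 1 reached the NCD range while the other HFD-fed mice lay below it. The log2 fold change of *Suclg2* was -0.55 (SE 0.278, edgeR adjusted p = 0.244) with all mice and -0.61 (SE 0.292, edgeR adjusted p = 0.189) without NCD replicate 1.

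Fumarase adds water to fumarate to give malate. *Fh1* (NCBI gene 14194, chr1:175601378-175625635) was at 61.8, 117 and 131 CPM on NCD and at 56.5, 58.8 and 55.6 CPM on HFD. The HFD-fed mice were nearly equal, at 57.0 ± 1.68 CPM (SD, n = 3 mice), and all lay below NCD replicate 1 by a small margin. The log2 fold change was -0.85 (SE 0.287, edgeR adjusted p = 0.115) with all mice, and without NCD replicate 1 *Fh1* fell by 1.10 (SE 0.111, edgeR adjusted p = 0.00659).

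Mitochondrial malate dehydrogenase closes the cycle by making oxaloacetate. *Mdh2* (NCBI gene 17448, chr5:135778649-135790386) was at 151, 360 and 371 CPM on NCD and at 191, 181 and 167 CPM on HFD. NCD replicate 1 was again the lowest of the 6 mice and the other NCD-fed mice were the highest. The log2 fold change was -0.71 (SE 0.359, edgeR adjusted p = 0.240) with all mice and -1.01 (SE 0.129, edgeR adjusted p = 0.00885) without NCD replicate 1, where *Mdh2* fell 2.02-fold.

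**Figure D1:**
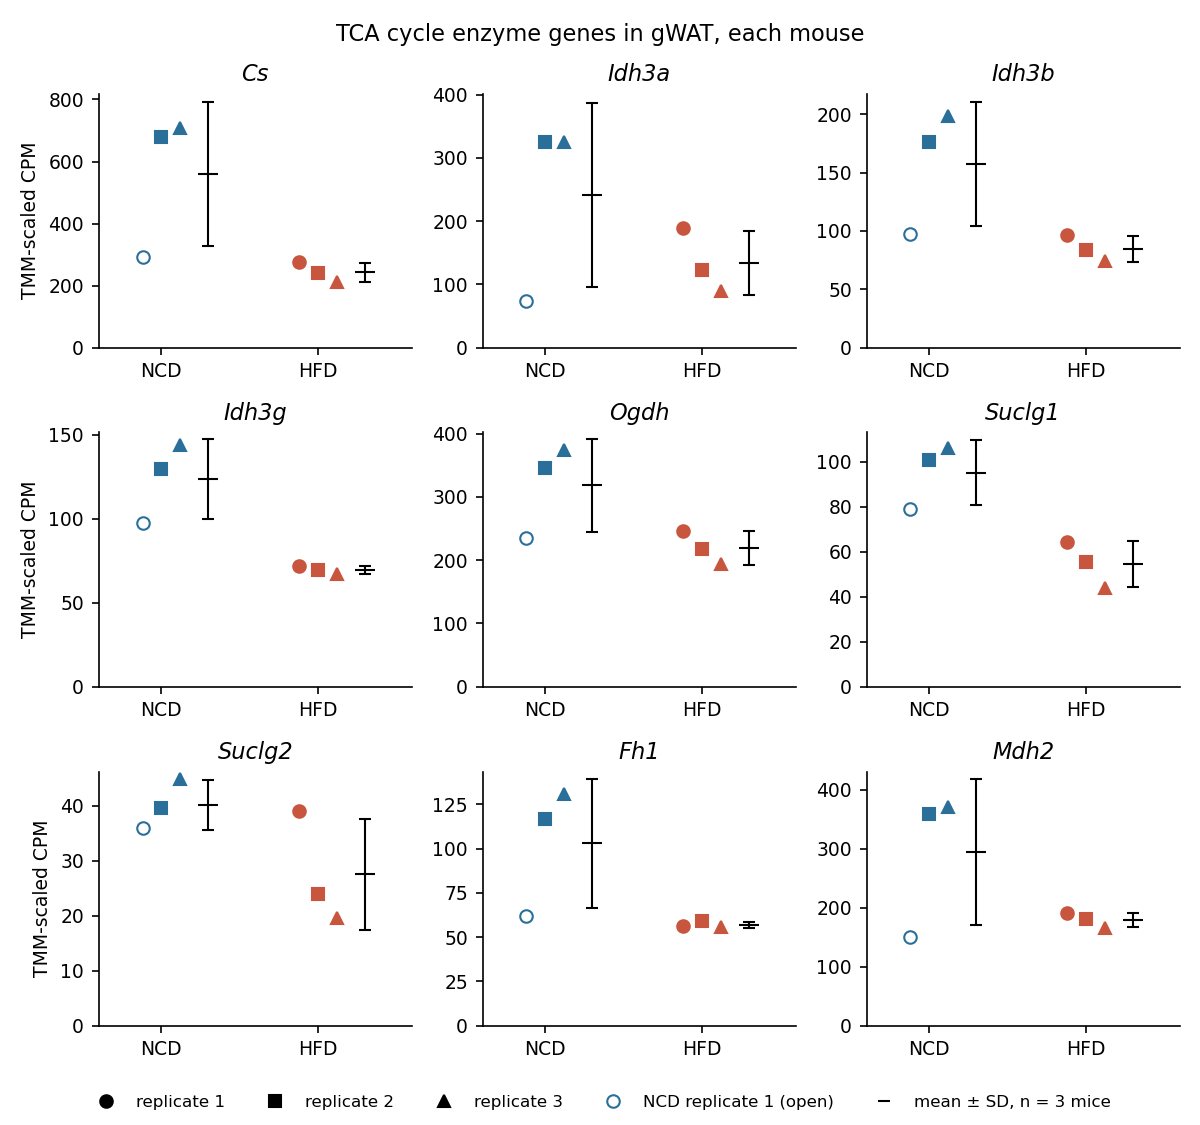
TMM-scaled CPM (vertical axes, from 0) of the 9 TCA cycle genes in each mouse, NCD in blue and HFD in red, with the mean ± SD (n = 3 mice) in black. NCD replicate 1 is the open circle and is the lowest NCD value in every panel. In *Idh3a* and *Mdh2* it lies below all HFD-fed mice, and in *Cs*, *Idh3b*, *Idh3g*, *Suclg1* and *Fh1* above all of them.

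With all mice, 1 of the 9 genes passed as lower on HFD, where 1.90% of the genes tested did. Without NCD replicate 1 the number was 8 of 9, against 10.1% of the genes tested there. DESeq2 on all 6 mice passed *Cs*, *Idh3b*, *Idh3g*, *Suclg1* and *Fh1*, 5 of 9 against 11.5% of the genes with an adjusted p. The diets did not overlap, with HFD lower, for the same 5 genes, as they did not for 18.7% of the genes tested, and an exact permutation test (two-sided) returned p = 0.1 for each of these, the lowest that can be had with 3 mice on each diet. The same exact test returned p = 0.2 for *Ogdh* and *Suclg2* and p = 0.4 for *Idh3a* and *Mdh2*. For all 9 genes the HFD-fed mice lay below NCD replicates 2 and 3, which held for 29.5% of the genes tested. The median log2 fold change of the 9 genes was -0.83 with all mice and -1.01 without NCD replicate 1, beside -0.08 and 0.02 for all genes tested. When counts were scaled by library totals alone, the median of all genes moved to 0.45 and that of the 9 genes to -0.39, which is -0.84 relative to all genes.

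**Figure D2:**
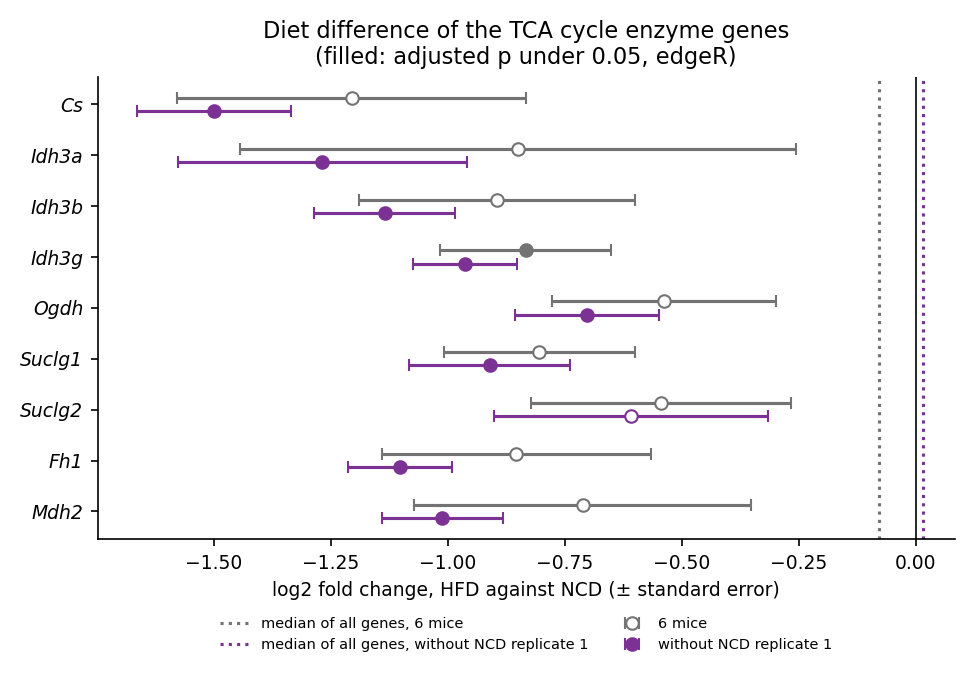
Log2 fold change of HFD against NCD with its standard error (horizontal axis) for the 9 TCA cycle genes, with all 6 mice in grey and without NCD replicate 1 in purple. Filled points passed an adjusted p under 0.05 in edgeR, and dotted lines are the medians of all genes tested, -0.08 and 0.02. All points lie below 0, and leaving out NCD replicate 1 shortens the standard error of 8 of the 9 genes.

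Summed over the 9 genes, the TMM-scaled level was 1125, 2272 and 2401 CPM in NCD replicates 1, 2 and 3 and 1231, 1050 and 922 CPM in HFD replicates 1, 2 and 3. As a share of all counts the sum was 0.0557%, 0.232% and 0.257% on NCD and 0.142%, 0.132% and 0.117% on HFD. The share of NCD replicate 1 was thus the lowest of the 6. As CPM of the counts outside the 11 seminal vesicle genes, the sum was 1345, 2616 and 2634 CPM on NCD and 1424, 1321 and 1168 CPM on HFD, so that NCD replicate 1 then lay between HFD replicates 1 and 2.

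Levels of different genes can be compared per length of their exons, as FPKM scaled by TMM. Averaged over the 6 mice the order was *Mdh2* (163 FPKM), *Cs* (137), *Idh3b* (74.9), *Idh3a* (72.7), *Idh3g* (72.6), *Ogdh* (60.4), *Suclg1* (49.3), *Fh1* (30.3) and *Suclg2* (8.99). *Mdh2* was the highest, *Cs* the next, *Fh1* the next to last and *Suclg2* the lowest in all 6 mice. The IDH3 subunit genes were not ordered beyond their spread, since *Idh3b* exceeded *Idh3a* in 3 of 6 mice and *Idh3a* exceeded *Idh3g* in 3 of 6. *Idh3g* exceeded *Ogdh* in 5 of 6 mice. On this scale *Suclg2* was at 9.54, 10.5 and 11.9 FPKM on NCD and at 10.4, 6.37 and 5.21 FPKM on HFD.

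**Figure D3:**
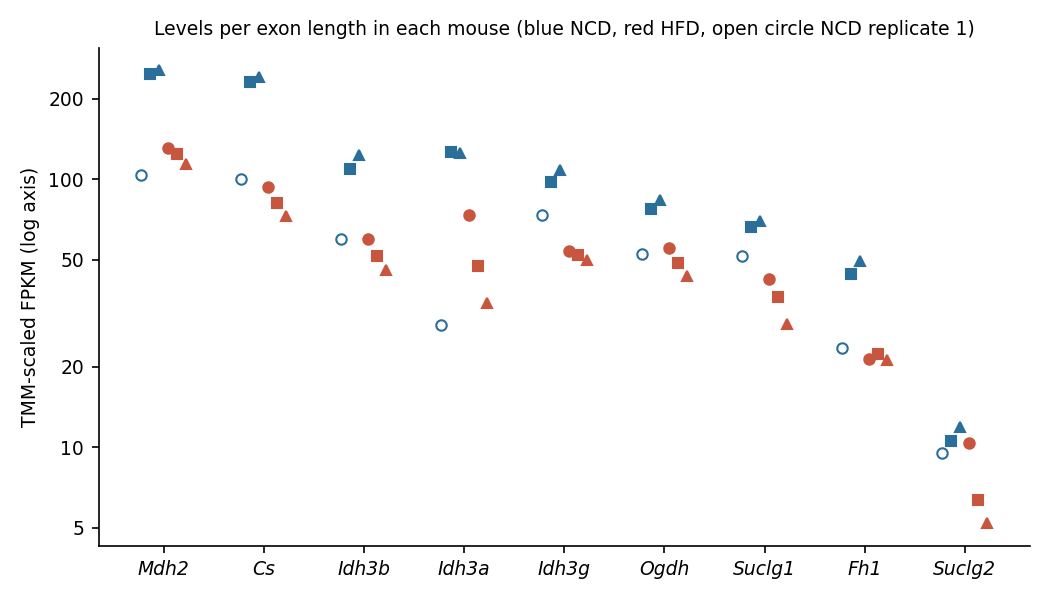
TMM-scaled FPKM (vertical log axis) of the 9 TCA cycle genes in each mouse, ordered by their mean, NCD in blue, HFD in red, NCD replicate 1 as an open circle. *Mdh2* and *Cs* stand at the top and *Suclg2* at the bottom in every mouse, and the symbols of *Idh3b*, *Idh3a* and *Idh3g* intermix.

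Ratios of partner genes within a library do not depend on the scaling between libraries, and 7 were compared between the diets. The FPKM ratio of *Idh3g* to *Idh3a* was 2.56, 0.771 and 0.860 on NCD and 0.734, 1.10 and 1.45 on HFD, and NCD replicate 1 stood above all others. *Idh3b* to *Idh3a* gave 2.09, 0.864 and 0.979 on NCD and 0.812, 1.09 and 1.32 on HFD. The ratio of the GTP-forming *Suclg2* to *Suclg1* was 0.184, 0.159 and 0.171 on NCD and 0.245, 0.175 and 0.180 on HFD, with overlap. *Sucla2*, the ATP-forming partner, exceeded *Suclg2* in all 6 mice, by 3.72 to 6.43 times per length. The ratio of *Mdh1*, the cytosolic malate dehydrogenase, to *Mdh2* was 2.60, 0.882 and 1.34 on NCD and 0.854, 0.577 and 0.633 on HFD. With all mice it was the single ratio whose diets did not overlap, with a log2 difference of -1.10 (exact two-sided permutation test, p = 0.1, adjusted p = 0.7 over the 7 ratios) and of -0.68 without NCD replicate 1. The other 6, which include *Idh2* (the NADP-dependent mitochondrial enzyme) to *Idh3a* and *Ogdhl* to *Ogdh*, had exact p-values from 0.3 to 0.8 and adjusted p = 0.8. The *Idh2* to *Idh3a* ratio was 1.502, 0.398 and 0.417 on NCD and 0.606, 1.077 and 1.295 on HFD. Its log2 difference of HFD minus NCD was 0.59 with all mice and 1.21 without NCD replicate 1, where the diets no longer overlapped. The log2 difference changed sign in 3 ratios when that library was left out, from -0.18 to 0.37 for *Idh3g* to *Idh3a*, from -0.20 to 0.20 for *Idh3b* to *Idh3a* and from 0.15 to -0.05 for *Sucla2* to *Suclg2*. It went from 0.21 to 0.26 for *Suclg2* to *Suclg1* and from 0.35 to 0.88 for *Ogdhl* to *Ogdh*. With it left out, 3 of the 7 ratios showed no overlap of the diets, those of *Mdh1*, *Idh2* and *Suclg2* to their partners. The gap was narrow for *Suclg2* (0.171 on NCD, 0.175 on HFD) and for *Mdh1* (0.882 on NCD, 0.854 on HFD). Among single genes, 29.5% had every HFD value below NCD replicates 2 and 3. How often ratios of other genes separate with so few mice was not counted, so no result is read from this number. *Ogdhl*, a relative of *Ogdh*, stood at no more than 0.344 FPKM in any mouse.

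The other 10 genes of the cycle's enzymes include the partners of OGDH and SUCLG1 and the succinate dehydrogenase subunits. With all mice 0 of 10 passed edgeR, 4 had an unadjusted p under 0.05, as 29.7% of all genes tested did, and 4 passed DESeq2, as 25.7% of the genes with an adjusted p did. The median log2 fold change was -0.52. With NCD replicate 1 left out, 7 of 10 fell and none rose, with a median of -0.75, where 10.1% of the genes tested fell. Among those that fell were *Dld* (-1.23), *Sdha* (-1.20), *Sdhb* (-0.97), *Sdhd* (-0.80), *Dlst* (-0.71) and *Sdhc* (-0.63). Those that did not pass were *Idh2* (-0.12, adjusted p = 0.499 from edgeR), *Sucla2* (-0.70, adjusted p = 0.0613) and *Ogdhl* (0.40, adjusted p = 0.742).

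The pyruvate dehydrogenase complex makes the acetyl-CoA that citrate synthase uses, and its kinases switch it off by phosphorylation. Of 11 genes of the complex and its regulators, 2 fell and 1 rose with all mice, where 1.90% of the genes tested fell and 5.58% rose. *Pdha1*, a subunit of the first component, fell by 1.75 on the log2 scale (SE 0.312, edgeR adjusted p = 0.0322), the phosphatase gene *Pdp2* fell by 1.95 (SE 0.428, edgeR adjusted p = 0.0495), and the kinase gene *Pdk4* rose by 3.06 (SE 0.437, edgeR adjusted p = 0.0228). In the fit of 5 mice, without NCD replicate 1, 5 fell and 1 rose, where 10.1% of the genes tested fell and 10.7% rose. *Pdhb* (-2.34), *Dlat* (-1.63) and *Pdhx* (-1.40) then fell besides *Pdha1* (-1.98) and *Pdp2* (-1.40), and *Pdk4* rose by 2.81.

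Of 12 genes for the entry and exit of intermediates, 1 fell with all mice, the citrate carrier *Slc25a1* (-3.17, SE 0.648, edgeR adjusted p = 0.0429), which exports citrate to the cytosol. Of all genes tested, 1.90% fell with all mice. Without NCD replicate 1, 5 fell, where 10.1% of the genes tested fell and 10.7% rose. *Slc25a1* (-3.59), *Pcx* (-3.02, pyruvate carboxylase, which makes oxaloacetate), *Mpc1* (-2.22) and *Mpc2* (-2.15, together the mitochondrial pyruvate carrier) and the dicarboxylate carrier *Slc25a10* (-2.01) fell. Among the 6 cytosolic counterparts, *Acly* (-3.82), *Me1* (-3.39) and *Mdh1* (-1.69) fell with all mice (adjusted p from 0.0237 to 0.0496 in edgeR). Their products cleave citrate, make NADPH from malate and interconvert malate and oxaloacetate. *Aco1* (-1.53) and *Idh1* (-0.67) also fell without NCD replicate 1, and *Got1* (1.28) rose.

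In 4 further lists 0 genes passed edgeR with all mice. At an unadjusted p under 0.05 there were 2 genes of lipoylation and assembly, 2 of fatty acid oxidation, 3 of glycolysis and 2 of the outer membrane list, and DESeq2 passed 1, 2, 2 and 2, shares no higher than the 29.7% and 25.7% of all genes. Without NCD replicate 1, 10.1% of all genes tested fell and 10.7% rose, and the counts that follow are from this fit. *Lias* (-0.70) and *Lipt1* (-1.10), which attach lipoate to the dehydrogenase complexes, fell among 8 genes of lipoylation and succinate dehydrogenase assembly. Of 16 genes of mitochondrial fatty acid oxidation 6 fell, *Echs1* (-1.78), *Hadh* (-1.28), *Cpt2* (-1.17), *Acadvl* (-1.07), *Acads* (-0.82) and *Etfb* (-0.68). *Cpt1a*, which admits long-chain acyl groups, rose (0.81), and the median was -0.48. Of 15 glycolysis genes 7 fell, *Hk2* (-1.63), *Aldoa* (-1.09), *Gapdh* (-1.07), *Ldha* (-0.91), *Pfkm* (-0.68), *Tpi1* (-0.58) and *Ldhb* (adjusted p = 0.0179 from edgeR). *Hk1* rose (1.12), and the median was -0.56. Of 8 genes of the outer membrane and mitochondrial DNA maintenance *Vdac1* (-0.61) and *Vdac3* (-0.47) fell, with a median of -0.35. Among 7 regulators of mitochondrial genes, a list added after values had been seen, 0 passed edgeR with all mice (1 of 7 at an unadjusted p under 0.05, 1 of 7 in DESeq2), and *Ppargc1a* (-2.00) and *Esrra* (-0.46) fell without NCD replicate 1. With counts scaled by totals alone and all mice, the medians of the lists for entry and exit (0.05), lipoylation (0.19), fatty acid oxidation (0.19), glycolysis (0.13) and the outer membrane (0.19) turned positive, all below the 0.45 of all genes.

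**Figure D4:**
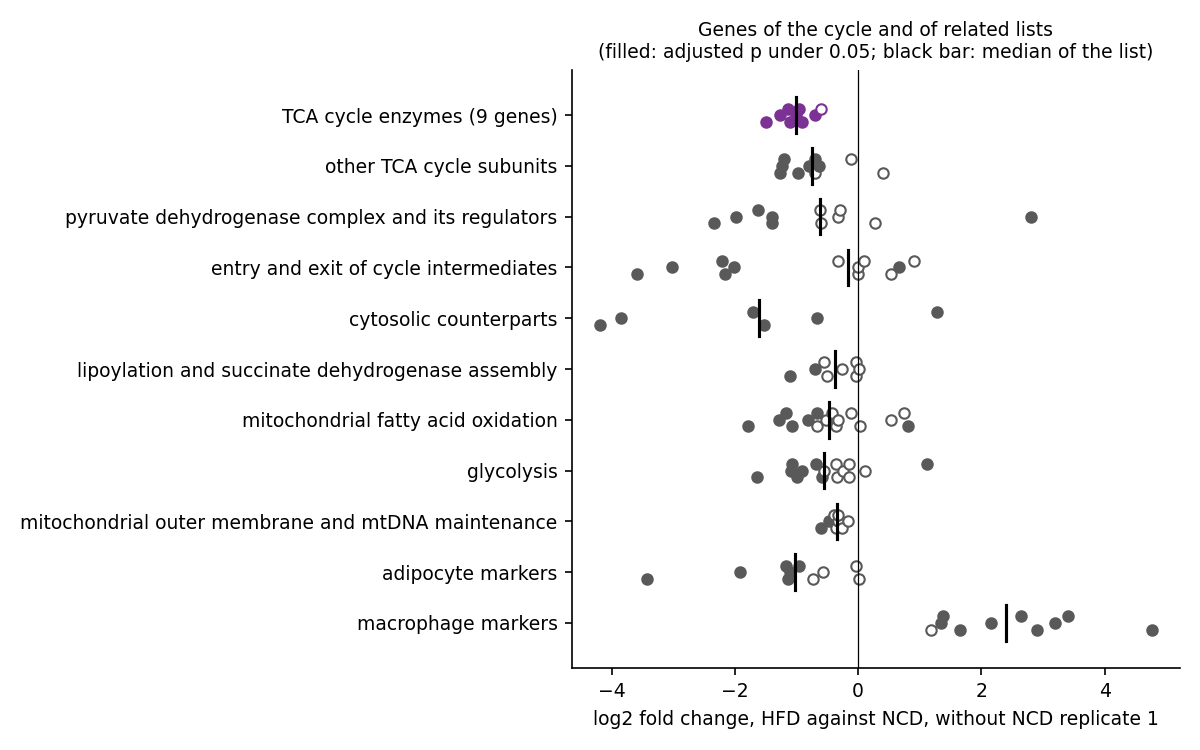
Log2 fold change of HFD against NCD without NCD replicate 1 (horizontal axis) for the 9 TCA cycle genes (purple) and the genes of related lists and of adipocyte and macrophage markers (grey), 1 point a gene, with the median of each list as a black bar. Filled points passed an adjusted p under 0.05 in edgeR. The medians were -1.01 for the TCA cycle genes, -0.75 for the other subunits, -0.56 for glycolysis, -0.48 for fatty acid oxidation, -1.03 for adipocyte markers and 2.40 for macrophage markers.

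Marker genes of the cells in the fat pad differed between the diets too. The 10 adipocyte markers summed to 5669 to 28946 CPM on NCD and 12115 to 15956 CPM on HFD. With all mice 0 passed edgeR, 2 of 10 had an unadjusted p under 0.05 (29.7% of all genes) and 2 of 10 passed DESeq2 (25.7%). *Cfd*, *Slc2a4*, *Plin1*, *Cebpa*, *Pparg* and *Lipe*, 6 of 10, fell without NCD replicate 1 (log2 fold changes from -3.42 to -0.95), and the median was -1.03. The 10 macrophage markers summed to 722 to 909 CPM on NCD and 2206 to 4943 CPM on HFD, and *Gpnmb*, *Trem2*, *Cd68* and *Adgre1* rose with all mice. Of the 722 CPM, which is the sum of NCD replicate 1, *Cd9* alone held 359 CPM, against 59.6 and 31.2 CPM in NCD replicates 2 and 3. Without NCD replicate 1, 9 of them rose, all but *Cd9*. In edgeR with all mice, *Col1a1* (2.11) rose among 6 stromal progenitor markers and *Msln* (2.22) among 5 mesothelial markers. Of all genes tested, 5.58% rose. *Dpp4* (-1.37) and *Dpt* (-0.03) of the stromal list and *Krt19* (-0.86) of the mesothelial list had negative log2 fold changes with all mice, without passing. The rest of these lists had positive ones. In NCD replicates 1, 2 and 3, *Dpp4* was at 263, 47.1 and 24.9 CPM and *Krt19* at 134, 30.6 and 10.9 CPM. With NCD replicate 1 left out, *Dpp4* (0.28) and *Krt19* (0.65) turned positive and *Dpt* (-0.38) stayed negative, again without passing. In edgeR without NCD replicate 1, *Col3a1* (1.34) and *Pecam1* (0.55), the latter 1 of 6 endothelial markers, also rose, where 10.7% of all genes did. *Kdr* (-0.54) and *Emcn* (-0.14) of the endothelial list had negative log2 fold changes without passing, and the rest of that list had positive ones. *Cnn1*, *Actg2*, *Myh11* and *Mylk*, 4 of 8 smooth muscle markers, fell in the same fit (-5.31 to -0.57), where 10.1% of all genes did. Of the 8 smooth muscle markers, 0 passed edgeR with all mice. At an unadjusted p under 0.05 were 6 (29.7% of all genes), and 6 passed DESeq2 (25.7%). In NCD replicates 1, 2 and 3, *Cnn1* was at 808, 74.6 and 15.6 CPM, *Myh11* at 1717, 204 and 54.8 CPM and *Mylk* at 675, 181 and 192 CPM. The seminal vesicle genes held 58.6%, 11.2% and 2.30% of the counts of these libraries. The part that admixed gland RNA has in the falls of these markers was not tested. The T cell markers stayed low, with sums from 9.14 to 15.9 CPM, and none passed either fit. No marker of any of these lists was at 0 in every library. The mean log2 level of the 9 TCA cycle genes minus that of the adipocyte markers was -1.70, -2.73 and -2.99 in the NCD libraries and -2.59, -3.04 and -2.73 in the HFD libraries, in replicate order. Averaged by diet this was -2.47 ± 0.683 on NCD and -2.78 ± 0.231 on HFD (SD, n = 3 mice each). HFD minus NCD was -0.31, and 0.08 with NCD replicate 1 left out, and the diets overlapped. The part that cell makeup has in the falls of the single genes was not tested.

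**Figure D5:**
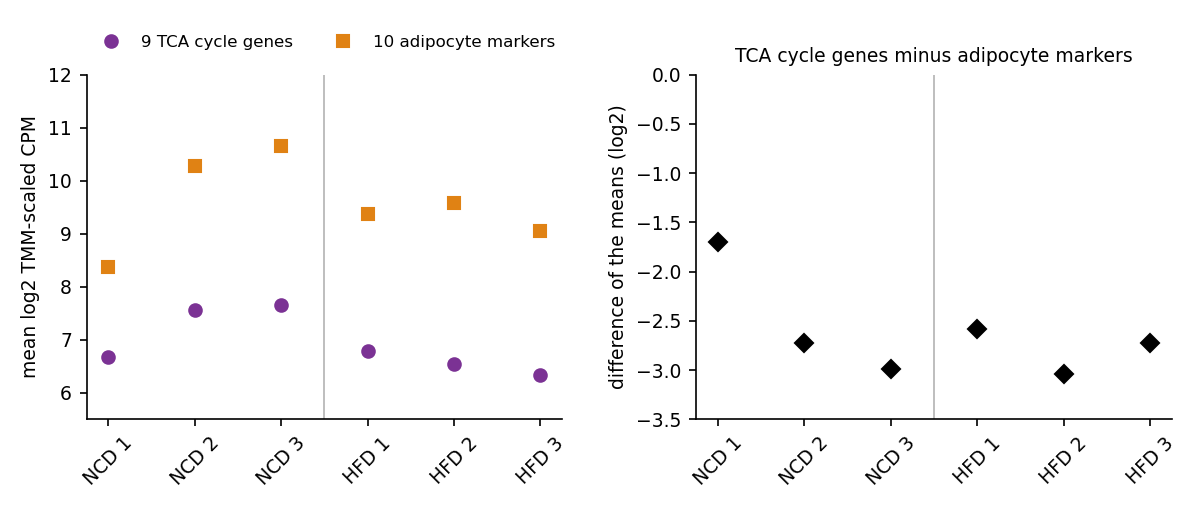
Left, mean log2 TMM-scaled CPM of the 9 TCA cycle genes (circles) and of 10 adipocyte markers (squares) in each mouse. Right, the difference of these means (log2), where NCD replicate 1 stands highest at -1.70 and the others lie from -3.04 to -2.59 with the diets intermixed.

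The level of each TCA cycle gene over the 6 mice was set beside the mean of the 9, after centring and scaling each gene. Pearson's r with this mean, of which each gene is a part, ranged from 0.826 (*Suclg2*) and 0.878 (*Idh3a*) to 0.998 (*Idh3b*) and 0.999 (*Ogdh*). Outside the 9 genes, the 10 of 13586 genes with the highest r were *Aldh1a7* (0.999), *Fbxl4*, *Enpep*, *Ndufaf1*, *C1qtnf12*, *Atp5a1*, *Cttn*, *Bmi1*, *Pcdhgb5* and *Iars2* (0.994). These 6 points share their libraries and the diet groups, and 329 genes exceeded 0.95, so the values describe these mice only. *Atp5a1*, a subunit of ATP synthase, was at 594, 934 and 1003 CPM on NCD and at 564, 481 and 449 CPM on HFD.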

How the data were processed

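RNA of gWAT from 3 NCD-fed and 3 HFD-fed mice was sequenced on TruSeq libraries. The authors deposited unnormalized read counts for each gene and mouse, and the sample labels gave the groups. The submitters' processing notes name bcl2fastq 2.20.0, Trimmomatic, HISAT2 2.1.0, StringTie 1.3.4d, DESeq2 and the builds mm10 and GRCm38. All count columns were matched to a sample. For strand and multiply mapping reads, the setting used in counting is not known here.

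Of 19790 identifiers, 19742 were paired with symbols through NCBI's GRCm38.p6 annotation, and the other 48 held 0.629% of the counts. In edgeR 4.0.16 (R 4.3.3), genes were kept by filterByExpr (at least 10 counts, total at least 15), and glmQLFTest was run after TMM scaling, with diet as the only term and Benjamini-Hochberg adjustment. The SE was obtained by dividing each log2 fold change by the root of its F. FPKM was computed here from exon unions of GENCODE M21. Alternatives were no filter, other scalings, DESeq2 1.42.0, removal of the seminal vesicle genes, a replicate block and each mouse left out. The procedure was tested on simulated data. There all libraries shared a common mean profile apart from the changed genes, so none resembled NCD replicate 1. No replicate pair agreed within sampling noise.

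The genes and lists were chosen with earlier results of these data known, and the regulator list and motifs after values had been seen. All 9 genes are named. Of the other lists, the genes past the threshold in either fit are named, with the genes of the ratios and the 10 genes most like the 9. Some genes of these lists are not reported here. Totals of 49575113 to 66360046 counts leave little counting error, and intervals were not needed beside the spread between mice.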

Additional observations from a re-analysis of the deposited data

How the results depend on the processing

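Each of the 9 TCA cycle genes was lower on HFD under all 15 alternatives (135 of 135 values). The number that passed, 1 with all mice, was 0 with no filter on low counts, upper-quartile scaling, total counts only, the seminal vesicle genes taken out, or the replicate block, and 5 with DESeq2. Leaving out 1 mouse gave 0 to 8 genes, the 8 without NCD replicate 1 and 0 without any other mouse. Of the settings added after the data had been seen, DESeq2 without NCD replicate 1 gave 8 and total counts only without it 7. Median-of-ratios scaling gave 1. At an unadjusted p under 0.05, 5 of the 9 passed in edgeR with all mice, where 29.7% of all genes tested (4524) did.

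The median of the 9 genes moved from -0.83 to -0.39 with total counts only, and the fits without a mouse ranged from -1.01 to -0.63. Over all genes, 1139 passed, against 3904 with DESeq2 (37 genes without an adjusted p), 5393 with DESeq2 without NCD replicate 1, 3498 with total counts only without it, 12 with the replicate block, and 2 to 3234 without a mouse. Of all calls 74.6% were higher on HFD, and 55.1% with DESeq2 and 51.5% without NCD replicate 1. The causes were not tested. Same-numbered mice did not deviate together (correlations -0.0569, -0.0450 and 0.00899), so the block with 0 of the 9 genes past the threshold is not a paired analysis. Of 240 list values under the alternatives, 169 stayed within the bounds set for no change and 71 moved. The exact test of the ratios cannot reach the threshold with 3 mice against 3, and was not repeated under the alternatives.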
